A study of Mus musculus with 12 samples.

Results

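The genes described here serve antigen presentation by major histocompatibility complex (MHC) class II and the costimulation that dendritic cells give to T cells. They are 10 genes of 18193 that have a probe set of their own on the array: Cd74, H2-Aa, H2-Ab1, H2-Eb1, Ciita, Cd80, Cd83, Cd86, Itgax and Flt3. They were chosen by name, with earlier results of these data known, and 21 probe sets carry 1 of these symbols and no other. Where a gene has several, the one with the highest 12-array mean stands for it. A gene was tested when that mean lay above a log2 level of 6.42, the 40th percentile of all probe sets, which kept 12921 genes. Of the 10 genes 9 were tested, and Cd80 lay below with all 4 of its probe sets.

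The lungs of mice of 8 to 12 weeks gave total RNA for 12 Affymetrix arrays, which fall into 4 groups with 3 arrays each. The first group received recombinant human pre-B-cell colony-enhancing factor (rhPBEF), at 20 µg per mouse through the trachea (in water, 1.5 µl per gram of body weight), and mechanical ventilation lasting 4 hours with breaths of 30 ml per kg. The second received rhPBEF alone, the third ventilation alone, which the titles call VALI, and the control group phosphate-buffered saline. Since the labels name water for rhPBEF and saline for control, the protein and its carrier fluid cannot be told apart. PBEF outside the cell is the same protein as NAMPT, which makes a precursor of NAD inside it. Strain, sex, the interval from instillation to sampling and a fluid given to the ventilation group are not stated in the labels. They also do not say that replicates are separate animals, so the p-values rest on a spread between arrays that may be technical. Whole lung holds many cell types, so fewer cells of a type and less RNA per cell cannot be told apart in any result here.

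The deposited log2 values ran from 2.99 to 15.02, with array medians between 7.0 and 7.07. Within groups, pairs of arrays had correlations of 0.983 to 0.997. No detection calls come with them, so a low level cannot be told from background. Of 10 lung markers all 10 were tested, and Sftpc, the surfactant protein C gene of alveolar type II cells, averaged 14.91 on the log2 scale. Ventilation replicate 2 had the lowest mean of the lung markers, at -0.27 relative to the control mean, against -0.04 to 0.06 for the other 11 arrays. Of 22 dendritic cell markers 21 are on the array and 18 were tested. Zbtb46, a transcription factor of conventional dendritic cells, averaged 8.65, whereas the cross-presenting cell markers Xcr1 and Clec9a were not among the genes tested.

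MHC class II molecules are pairs of an alpha and a beta chain that show peptides from engulfed material to CD4 T cells. The invariant chain, encoded by Cd74, guides them from the endoplasmic reticulum to the endosome, and the coactivator CIITA switches their genes on together. A dendritic cell that meets inflammatory signals raises CD80, CD86 and CD83 on its surface, and T cells need such costimulation beside the peptide. In the lung, dendritic cells, B cells, macrophages and alveolar type II cells all carry class II.

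Among these genes the data show 1 large change. In lungs given rhPBEF, with or without ventilation, Cd83 was higher than in control and passed. Against ventilation alone, the combined treatment gave a Cd83 difference of 2.23 that did not pass (limma adjusted p = 0.0638). The class II genes did not pass in any comparison. Of 9 genes tested, 1 (Cd83) passed a limma adjusted p of 0.05 for rhPBEF plus ventilation against control, a comparison in which 8.79% of all 12921 genes passed and 3.93% were higher. A second gene, Cd86, had an unadjusted p under 0.05, as did 27.5% of all genes. For rhPBEF against control 1 of 9 (again Cd83) passed, against 1.22% of all genes, 0.936% being higher. For ventilation against control 0 of 9 passed, and 0 had an unadjusted p under 0.05 in limma, against 0.00774% and 15.5% of all genes. The median difference of the 9 genes from control was 0.042 on the log2 scale for the combined treatment, 0.063 for rhPBEF and 0.026 for ventilation, beside -0.064, -0.067 and -0.039 for all genes.

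**Figure D1:**
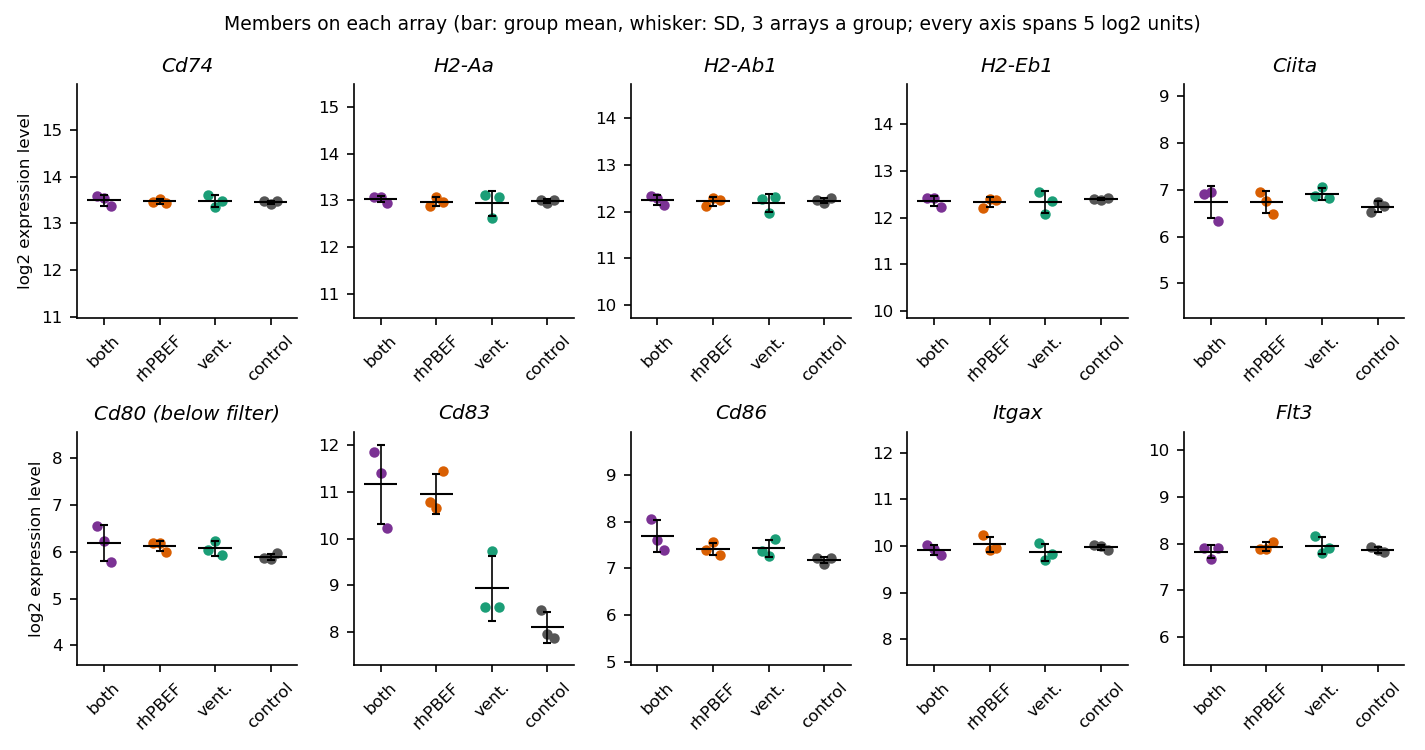
Log2 expression level (vertical axis) of each of the 10 genes on every array, by group (both stands for rhPBEF plus ventilation, vent. for ventilation alone). Points are arrays, bars group means and whiskers SD (n = 3), and all axes span the same range of log2 units. The 6 arrays given rhPBEF lie from 10.23 to 11.86 for Cd83, above all others, while the points of Cd74, H2-Aa, H2-Ab1 and H2-Eb1 form level rows.

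The class II structural genes are shown first, and the promoters of H2-Aa and H2-Eb1 are printed because both genes are switched on through the same promoter elements and neither passed in any comparison. RefSeq promoters were given for 5 of the 10 genes, and each covers 250 bases before and 50 after the annotated start, on build GRCm38.p6. Capitals mark the core of the Y box (GATTGG, or CCAATC where it lies on the other strand), the element bound by the factor NF-Y.
H2-Aa promoter, chr17:34287774-34288073, minus strand: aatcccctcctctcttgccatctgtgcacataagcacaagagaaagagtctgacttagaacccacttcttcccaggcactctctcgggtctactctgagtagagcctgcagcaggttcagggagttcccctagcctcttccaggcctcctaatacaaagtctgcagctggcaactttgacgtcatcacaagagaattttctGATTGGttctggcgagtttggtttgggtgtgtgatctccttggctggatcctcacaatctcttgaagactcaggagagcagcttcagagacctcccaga
H2-Eb1 promoter, chr17:34305617-34305916, plus strand: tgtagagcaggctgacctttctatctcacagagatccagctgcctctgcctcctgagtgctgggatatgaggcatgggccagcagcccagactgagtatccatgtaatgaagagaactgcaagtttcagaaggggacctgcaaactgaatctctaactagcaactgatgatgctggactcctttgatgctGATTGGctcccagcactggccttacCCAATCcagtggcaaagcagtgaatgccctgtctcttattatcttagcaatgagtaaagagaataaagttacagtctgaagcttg
The H2-Aa promoter holds 1 match, starting at -49 from the start site. The H2-Eb1 promoter holds 2 matches, at -60 on the gene's strand and at -35 on the other. Of 32851 promoters of the same length in the table, 16.1% hold this core on either strand, so a match describes the sequence and is no measure of binding.

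H2-Aa, which encodes the alpha chain of the I-A molecule, had log2 levels of 13.06, 13.07 and 12.94 with rhPBEF plus ventilation and 12.89, 13.07 and 12.97 with rhPBEF. Its levels were 13.11, 12.62 and 13.07 with ventilation, and 13.005, 12.940 and 13.004 in control. Ventilation replicate 2 was the lowest array, and each treated group overlapped the control group. The difference of the combined treatment from control was 0.043 ± 0.12 (SE), with a 95% interval from -0.22 to 0.30.

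H2-Ab1, the beta chain gene of I-A, had 12.32, 12.29 and 12.13 with the combined treatment, 12.11, 12.29 and 12.25 with rhPBEF, 12.28, 11.97 and 12.32 with ventilation and 12.24, 12.17 and 12.29 in control. Again ventilation replicate 2 was the lowest array and the groups overlapped. H2-Eb1, the beta chain gene of the I-E molecule, had 12.41, 12.41 and 12.22 with the combined treatment and 12.21, 12.41 and 12.37 with rhPBEF. Ventilated lungs had 12.56, 12.09 and 12.35, and control lungs had 12.40, 12.37 and 12.41. The control arrays of H2-Eb1 lay close together, and each treated group overlapped them.

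Cd74 had 13.58, 13.53 and 13.36 with rhPBEF plus ventilation, 13.46, 13.51 and 13.42 with rhPBEF, 13.60, 13.34 and 13.48 with ventilation and 13.47, 13.41 and 13.47 in control. Its highest and its lowest array were both ventilated lungs, and no group stood apart. Over Cd74, H2-Aa, H2-Ab1 and H2-Eb1, the 12 log2 differences from control lay between -0.065 and 0.043, and the lowest limma adjusted p was 0.789. Their 95% intervals reached no further than -0.31 and 0.30, a change of 1.24-fold at the widest bound. For each of the 4 genes, neighbouring groups in the order of the means overlapped.

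Some other probe sets of these genes gave larger differences than the one that stands for the gene. For H2-Aa with the combined treatment, they included 0.20 ± 0.13 and 0.22 ± 0.15 (SE), against 0.043. The intervals given above cover only the probe sets that stand for the genes. Over the 4 probe sets of H2-Aa the differences from control ran from 0.017 to 0.22 for the combined treatment, from -0.033 to -0.0069 for rhPBEF and from -0.049 to 0.18 for ventilation. Over the 3 of H2-Ab1 they ran from -0.038 to 0.016, from -0.049 to -0.017 and from -0.098 to -0.043. None passed in the fit of all 45037 probe sets. Several of these probe sets carry the array maker's suffixes _x_at or _s_at, which mark probes that can match related transcripts, so single class II genes may not be fully told apart.

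The 4 class II genes varied together from array to array. Their pairwise Pearson r over the 12 arrays ran from 0.759 to 0.939, and from 0.786 to 0.938 after the group means were taken out. The arrays share their scaling, which enters such values. The mean of the 4 genes relative to control lay from -0.10 to 0.079 in the combined group, from -0.097 to 0.053 in the rhPBEF group, from -0.26 to 0.12 in the ventilation group and from -0.041 to 0.029 in control. The low end belongs to ventilation replicate 2, on which the class I presentation list stood at -0.19 and the lung marker list at -0.27. Whether these move for a shared reason was not tested.

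Ciita, the coactivator that class II genes depend on, did not pass in any group. Its levels were 6.92, 6.95 and 6.34 with rhPBEF plus ventilation, 6.95, 6.75 and 6.48 with rhPBEF, 6.86, 7.06 and 6.82 with ventilation and 6.53, 6.75 and 6.65 in control. All 3 ventilated lungs were above all 3 controls, whereas the other treated groups spread around the control values. The differences from control were 0.094 ± 0.17 (SE, limma adjusted p = 0.753) for the combined treatment, 0.088 ± 0.17 (adjusted p = 0.823) for rhPBEF and 0.27 ± 0.17 (adjusted p = 0.432) for ventilation. Of the 3 probe sets of Ciita 1 lay above the filter, close to it. The others had means of 6.08 and 5.53, and their differences from control ran from -0.14 to 0.20. Across arrays, Ciita and the 4 class II genes had Pearson r from -0.21 to 0.33 (n = 12 arrays that share scaling), given as a description.

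Cd83, a surface glycoprotein of mature dendritic cells that other activated leukocytes also make, carried the largest change of the set. Its log2 levels were 11.86, 11.41 and 10.23 with rhPBEF plus ventilation and 10.78, 10.66 and 11.45 with rhPBEF alone. Ventilated lungs had 8.53, 9.74 and 8.54, and control lungs had 8.48, 7.96 and 7.87. Both rhPBEF groups stood clear of the ventilated and the control lungs, and they overlapped each other. All 3 ventilated lungs were above all 3 controls, by a small margin for replicates 1 and 3.

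Cd83 averaged 11.17 ± 0.84 with the combined treatment and 8.10 ± 0.33 in control (SD, n = 3 arrays each), a difference of 3.06 ± 0.43 (SE) or 8.37-fold with a limma adjusted p of 0.00499. With rhPBEF it averaged 10.96 ± 0.43, a difference from control of 2.86 ± 0.43 (SE) or 7.27-fold with a limma adjusted p of 0.00962. Without control replicate 2 the rhPBEF difference was 2.79 with an adjusted p of 0.0566, and without control replicate 3 it was 2.75 with an adjusted p of 0.0593. For the combined treatment Cd83 passed whichever array was left out. With ventilation alone it averaged 8.93 ± 0.69, a difference of 0.83 ± 0.43 (SE) with a limma adjusted p of 0.372 and a 95% interval from -0.11 to 1.77.

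In rhPBEF plus ventilation against ventilation, Cd83 differed by 2.23 ± 0.43 (SE) with a limma adjusted p of 0.0638, and the groups did not overlap. Here 0 of 9 genes passed, against 0.325% of all genes, and 1 had an unadjusted p under 0.05, against 9.98%. Without combined replicate 3, the lowest of its group, the difference was 2.70 with an adjusted p of 0.00471, and 406 of 12921 genes passed. Without ventilation replicate 2 it was 2.63 with an adjusted p of 0.0466, and 23 of all genes passed. Over 23 alternative fits it ran from 1.885 to 2.77, with limma adjusted p up to 0.47. In rhPBEF plus ventilation against rhPBEF it was 0.20 ± 0.43 (SE, limma adjusted p = 0.999), with an interval from -0.74 to 1.14, and 0 of 9 genes passed or had an unadjusted p under 0.05, against 0.00774% and 3.77% of all genes. The interaction, the rhPBEF difference in ventilated lungs minus that in unventilated lungs, was -0.63 ± 0.60 (SE) with a limma adjusted p of 0.998. For it 0 of 9 genes passed and 0 had an unadjusted p under 0.05, against 0 and 2.23% of all genes.

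**Figure D2:**
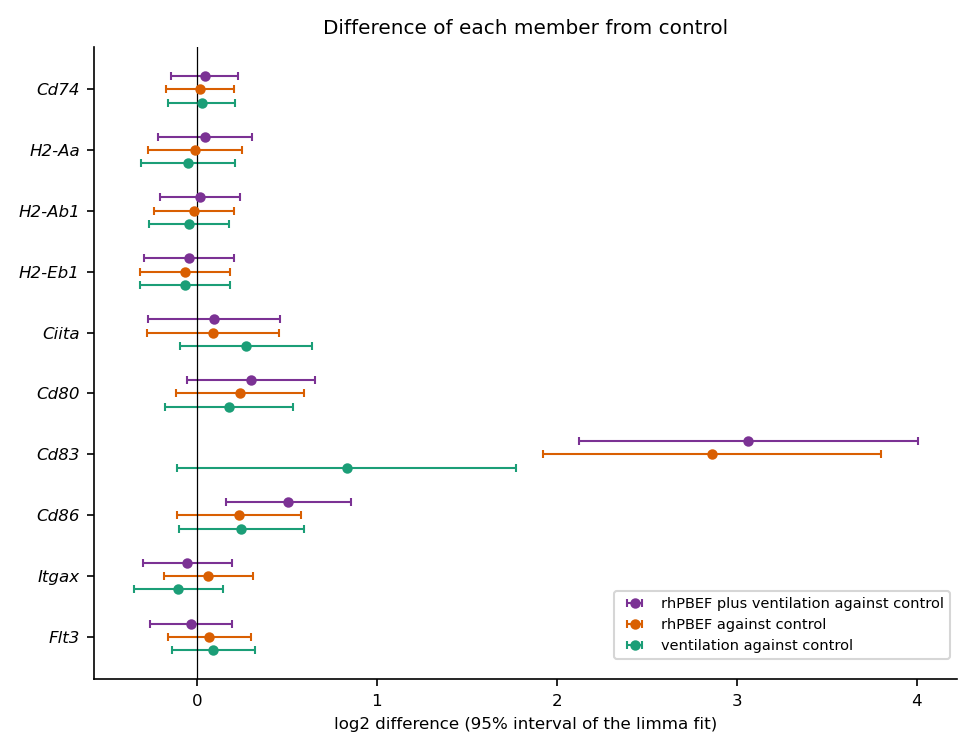
Log2 difference from control (horizontal axis) of each of the 10 genes for rhPBEF plus ventilation, rhPBEF and ventilation, with 95% intervals from the limma fit. The intervals of Cd83 for both rhPBEF groups start at 2.12 and 1.92, that of Cd86 for the combined treatment starts at 0.16, and all others cross 0. Values of Cd80 come from the unfiltered fit.

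Cd86, the ligand through which dendritic cells engage CD28 on T cells, was highest in the combined group but did not pass. Its levels were 8.06, 7.61 and 7.39 with rhPBEF plus ventilation, 7.40, 7.56 and 7.29 with rhPBEF, 7.38, 7.27 and 7.63 with ventilation and 7.23, 7.10 and 7.22 in control. Every treated lung was above every control lung, and the treated groups overlapped one another. The difference from control was 0.51 ± 0.16 (SE) for the combined treatment, with a limma adjusted p of 0.0663, 0.23 ± 0.16 (adjusted p = 0.455) for rhPBEF and 0.25 ± 0.16 (adjusted p = 0.453) for ventilation. Without combined replicate 3 the first of these was 0.66 with an adjusted p of 0.0147, and 2498 of 12921 genes passed. Over 22 alternative fits it ran from 0.32 to 0.66, with limma adjusted p up to 0.238. The other probe set of Cd86 gave 0.76, 0.52 and 0.078 for the same comparisons, and its adjusted p for the combined treatment was 0.0825 in the limma fit of all probe sets.

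Groups that did not overlap were common on these arrays. For the combined treatment against control they were seen for 2 of 9 genes (Cd83 and Cd86) and for 36.9% of all genes. For rhPBEF against control they were seen for the same 2 genes and 33.3% of all genes, and for ventilation against control for 3 (Ciita, Cd83 and Cd86) and 24.6%. In each case the treated arrays of these genes were the higher ones, a direction seen for 12.5%, 9.24% and 9.1% of all genes. For the combined treatment against ventilation it was 1 of 9 (Cd83) and 10.4%, and against rhPBEF 0 of 9 and 9.4%.

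Cd80, the other ligand of CD28, lay in the range where no call was made, and its probe sets disagreed. The probe set with the highest mean had 6.56, 6.24 and 5.78 with rhPBEF plus ventilation, 6.20, 6.19 and 6.01 with rhPBEF, 6.04, 6.24 and 5.94 with ventilation and 5.86, 5.85 and 5.97 in control. The rhPBEF arrays lay above all controls, and the other treated groups overlapped them. Its differences from control in the unfiltered fit were 0.30, 0.24 and 0.18 for the combined treatment, rhPBEF and ventilation.

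A second Cd80 probe set, with a mean of 5.40, had 6.87, 6.21 and 5.36 with rhPBEF plus ventilation and 5.35, 5.60 and 5.32 with rhPBEF. It had 5.39, 5.53 and 5.01 with ventilation and 4.65, 4.66 and 4.80 in control. Every treated lung was above every control, with combined replicates 1 and 2 highest. The differences were 1.45 ± 0.29 (SE, limma adjusted p = 0.0284 over all 45037 probe sets), 0.72 ± 0.29 (adjusted p = 0.332) and 0.61 ± 0.29 (adjusted p = 0.422). This probe set was singled out after its values were seen. The remaining Cd80 probe sets gave -0.24 and 0.19 for the combined treatment, and neither passed.

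**Figure D3:**
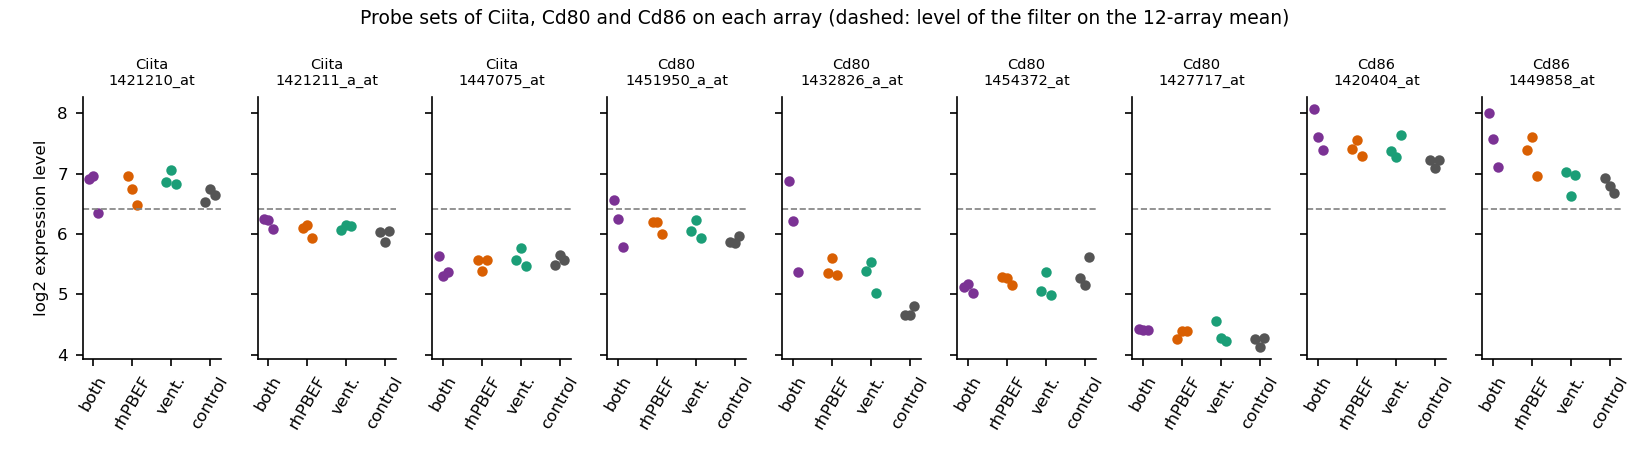
Log2 expression level (vertical axis) of every probe set of Ciita, Cd80 and Cd86 on each array, by group, with the filter level of 6.42 dashed. Of the 4 Cd80 probe sets the second from the left separates all treated from all control lungs, between 5.01 and 6.87 against 4.65 to 4.80, and it lies mostly below the filter.

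Itgax, which encodes the integrin CD11c of dendritic cells and alveolar macrophages, did not pass in any comparison. Its levels were 10.02, 9.94 and 9.81 with rhPBEF plus ventilation, 10.23, 9.92 and 9.95 with rhPBEF, 10.07, 9.71 and 9.82 with ventilation and 10.02, 9.99 and 9.91 in control. The groups overlapped throughout. The differences from control were -0.053, 0.063 and -0.10 on the log2 scale, each with an SE of 0.11, and the lowest limma adjusted p was 0.661.

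Flt3, the receptor tyrosine kinase that dendritic cell precursors need, had 7.90, 7.68 and 7.91 with the combined treatment, 7.88, 7.88 and 8.04 with rhPBEF, 8.16, 7.80 and 7.91 with ventilation and 7.93, 7.85 and 7.81 in control. The 4 groups overlapped. The differences from control were -0.035, 0.070 and 0.091, each with an SE of 0.10, and the lowest limma adjusted p was 0.677. Combined replicate 3 was the lowest array of its group for each of the 10 genes except Flt3.

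The wider pathway was followed in gene lists written from general knowledge, with earlier results of these data known. Their counts are therefore a description. Of 19 tested genes of class II loading and regulation, which hold the H2-DM and H2-O chaperones, cathepsins and the RFX and NF-Y factors, 1 rose with rhPBEF plus ventilation and 0 with either treatment alone (3, 2 and 1 had an unadjusted p under 0.05 in limma for the combined treatment, rhPBEF and ventilation). Over all genes 27.5%, 18.3% and 15.5% had such a p in these comparisons, the background for the same count in each list below. At a limma adjusted p under 0.05, 3.93% of all genes were higher with the combined treatment and 0.936% with rhPBEF. For ventilation 0.00774% passed in either direction. These shares are the background for the calls in each list. The gene that rose was Marchf1, whose ubiquitin ligase takes class II and CD86 off the surface. It averaged 7.95 ± 0.41 with the combined treatment and 6.62 ± 0.06 in control (SD, n = 3 arrays each), a difference of 1.33 ± 0.17 (SE, limma adjusted p = 0.00275). With rhPBEF its difference was 0.69 (adjusted p = 0.0787) and with ventilation 0.75 (adjusted p = 0.125). Rfx5, an RFX factor gene, stood at 0.64, 0.55 and -0.20 for the combined treatment, rhPBEF and ventilation and did not pass. The list medians were -0.045, -0.026 and -0.041 for the combined treatment, rhPBEF and ventilation.

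In a list of interferon-gamma, interleukin-10 and related signalling genes, 3 of 9 tested rose with the combined treatment and 0 with rhPBEF or ventilation. In these comparisons 6, 5 and 1 had an unadjusted p under 0.05 in limma. Those that rose included Il10ra and Il10rb, the receptor chains for interleukin-10, by 0.80 and 0.52 (limma adjusted p of 0.0307 and 0.0294). The other was Jak2, a kinase of the interferon-gamma receptor, by 0.74 on the log2 scale (limma adjusted p = 0.0147). Ifngr1, Ifngr2, Jak1 and Irf1 did not pass. The interferon-gamma gene itself was not among the genes tested. The list medians were 0.49, 0.43 and 0.11. In class I presentation 0 of 14 genes passed in any comparison with control, with 1, 0 and 0 at an unadjusted p under 0.05. B2m, the light chain of class I, stood at -0.060 for the combined treatment, while H2-D1, a class I heavy chain, stood at -0.035.

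Of 8 other costimulatory and coinhibitory ligands tested, 4 rose with the combined treatment, 2 with rhPBEF and 0 with ventilation, with list medians of 0.76, 0.41 and 0.26. An unadjusted p under 0.05 in limma was seen for 6, 5 and 2 of them. Tnfsf9, the ligand of 4-1BB, rose by 2.10 ± 0.41 with the combined treatment and by 2.40 ± 0.41 with rhPBEF (SE, limma adjusted p of 0.0175 and 0.0194). Icam1, the adhesion partner of LFA-1, rose by 1.24 ± 0.18 and 1.23 ± 0.18 (adjusted p of 0.00594 and 0.00962). Cd274, which encodes PD-L1, and Cd40 rose in the combined group by 1.13 and 0.74 (adjusted p of 0.0388 and 0.0196). With rhPBEF alone Cd274 and Cd40 stood at 1.05 and 0.42 and did not pass.

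On the receptor side, 2 of 5 tested genes rose with the combined treatment, 1 with rhPBEF and 0 with ventilation. An unadjusted p under 0.05 in limma was seen for 2, 1 and 1. The list medians were 0.12, 0.062 and 0.11. Tnfrsf9, which encodes 4-1BB, rose by 1.89 ± 0.31 with the combined treatment and by 1.82 ± 0.31 with rhPBEF (SE, limma adjusted p of 0.00904 and 0.0194). Icos, the inducible costimulator of T cells, rose by 0.58 with the combined treatment (adjusted p = 0.0265). Among 8 tested genes of cytokine and growth factor signalling, 3 rose with the combined treatment, 1 with rhPBEF and 0 with ventilation. The list was written around Flt3, and its medians were 0.32, 0.26 and -0.0087. In these comparisons 4, 4 and 3 had an unadjusted p under 0.05 in limma. Among those for ventilation was Kit, a related receptor tyrosine kinase, at -0.55. Csf2, the gene of the myeloid growth factor GM-CSF, rose by 2.41 (adjusted p = 0.0397) and stood at 2.84 with rhPBEF (adjusted p = 0.0567). Csf2rb, the shared chain of its receptor, rose by 1.68 and 1.54 in these groups, and Stat3, a transcription factor downstream of cytokine receptors, by 0.63 in the first.

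Markers of cells that could carry Cd83 or class II were examined beside them. Of 18 dendritic cell markers 3 rose with the combined treatment and 0 with either treatment alone. For the combined treatment, rhPBEF and ventilation, 5, 5 and 1 had an unadjusted p under 0.05 in limma. The shares of all genes were 27.5%, 18.3% and 15.5%. Those that rose were Ccl17, a chemokine of mature dendritic cells, by 2.22, Batf3, a factor of cross-presenting cells, by 0.73, and Sirpa, a receptor of conventional dendritic cells and macrophages, by 0.47. The list medians were 0.22, 0.095 and 0.11 for the combined treatment, rhPBEF and ventilation. Positive differences were seen for 15, 14 and 12 of the 18 in these comparisons, and negative ones for 3, 4 and 6. With rhPBEF the chemokine genes Ccl17 and Ccl22 stood highest, at 2.38 and 1.35, and neither passed. Zbtb46 stood at -0.33, -0.057 and -0.51 in the same comparisons, and Irf4 and Itgae, a factor and an integrin of conventional dendritic cells, stood at -0.081 and -0.043 for the combined treatment. The mean of these 18 markers relative to control lay from 0.058 to 0.59 with the combined treatment, from 0.25 to 0.43 with rhPBEF, from 0.0032 to 0.15 with ventilation and from -0.046 to 0.082 in control. Ccr7, the homing receptor of mature dendritic cells, stood at 0.37 and 0.41 with the combined treatment and rhPBEF and did not pass.

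Neutrophil markers had the largest medians of the 13 lists, 3.01, 2.67 and 2.61 for the combined treatment, rhPBEF and ventilation. Of 11 tested, 7 rose with the combined treatment, 4 with rhPBEF and 0 with ventilation, and 9, 9 and 8 had an unadjusted p under 0.05 in limma. S100a9, an abundant calcium-binding protein of neutrophils, rose by 3.38 and 3.48 with the combined treatment and rhPBEF (limma adjusted p of 0.0137 and 0.0225) and stood at 2.98 with ventilation (adjusted p = 0.11). Clec4e and Il1r2 rose by 4.10 and 3.54 with the combined treatment and by 3.65 and 2.92 with rhPBEF, and Clec4d rose by 3.40 with the combined treatment. The control mean of Clec4e, 6.11, lay below the filter level. The mean of the 11 markers relative to control lay from 1.76 to 3.40 with the combined treatment, from 2.07 to 2.43 with rhPBEF, from 0.70 to 2.81 with ventilation and from -0.16 to 0.11 in control. On ventilation replicates 1 and 2 it was 2.81 and 2.60, where Cd83 was 8.53 and 9.74. Without ventilation replicate 3, 7 of the 11 neutrophil markers passed for ventilation against control. The part of neutrophils in the Cd83 difference was not tested.

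Of 14 macrophage markers 2 rose and 1 fell with the combined treatment, 2 rose with rhPBEF and 0 passed with ventilation. In these comparisons 6, 5 and 2 had an unadjusted p under 0.05 in limma. Marco, a scavenger receptor, rose by 1.65 and 1.93, and Plet1 by 1.09 and 1.13. Most of the 14 went the other way, with 11, 10 and 13 negative differences for the combined treatment, rhPBEF and ventilation. The list medians were -0.19, -0.13 and -0.21. Siglecf, a lectin of alveolar macrophages, had a difference of -1.03 with the combined treatment (limma adjusted p = 0.029). The mean of the 14 relative to control lay from -0.092 to -0.030 with the combined treatment, from -0.018 to 0.078 with rhPBEF, from -0.31 to 0.015 with ventilation and from -0.092 to 0.15 in control. Of 7 monocyte markers 1 rose with the combined treatment, the integrin gene Itgam by 1.52, and 0 passed with either treatment alone. An unadjusted p under 0.05 in limma was seen for 1, 2 and 1 in the same order. The list mean lay from 0.00011 to 0.95 with the combined treatment and from 0.066 to 0.18 with rhPBEF. It lay from 0.013 to 0.86 with ventilation and from -0.047 to 0.045 in control.

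Of 11 B cell markers 1 rose with the combined treatment, the low-affinity IgE receptor gene Fcer2a by 0.66, and 0 passed with either treatment alone. In each of these comparisons 1 had an unadjusted p under 0.05 in limma. The list mean lay from -0.079 to 0.10 with the combined treatment and from -0.11 to 0.28 with rhPBEF. It lay from -0.43 to 0.55 with ventilation and from -0.069 to 0.12 in control. Of 9 T and NK cell markers 0 passed in any comparison with control, and 1, 2 and 0 had an unadjusted p under 0.05 in limma for the combined treatment, rhPBEF and ventilation, against 27.5%, 18.3% and 15.5% of all genes. Gzma, a protease of cytotoxic cells, stood at 0.18 and Cd3e, a chain of the T cell receptor complex, at 0.085 for the combined treatment, and the list mean lay from -0.065 to 0.46 with the combined treatment, from -0.18 to 0.24 with rhPBEF, from -0.22 to 0.34 with ventilation and from -0.099 to 0.15 in control. Of 10 lung markers 1 fell with the combined treatment, the claudin gene Cldn18, at -0.32, while 8.79% of all genes passed in either direction. For the combined treatment, rhPBEF and ventilation, 3, 2 and 1 lung markers had an unadjusted p under 0.05 in limma. What share any of these cells have in the levels of Cd83, Cd86 or class II was not tested.

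**Figure D4:**
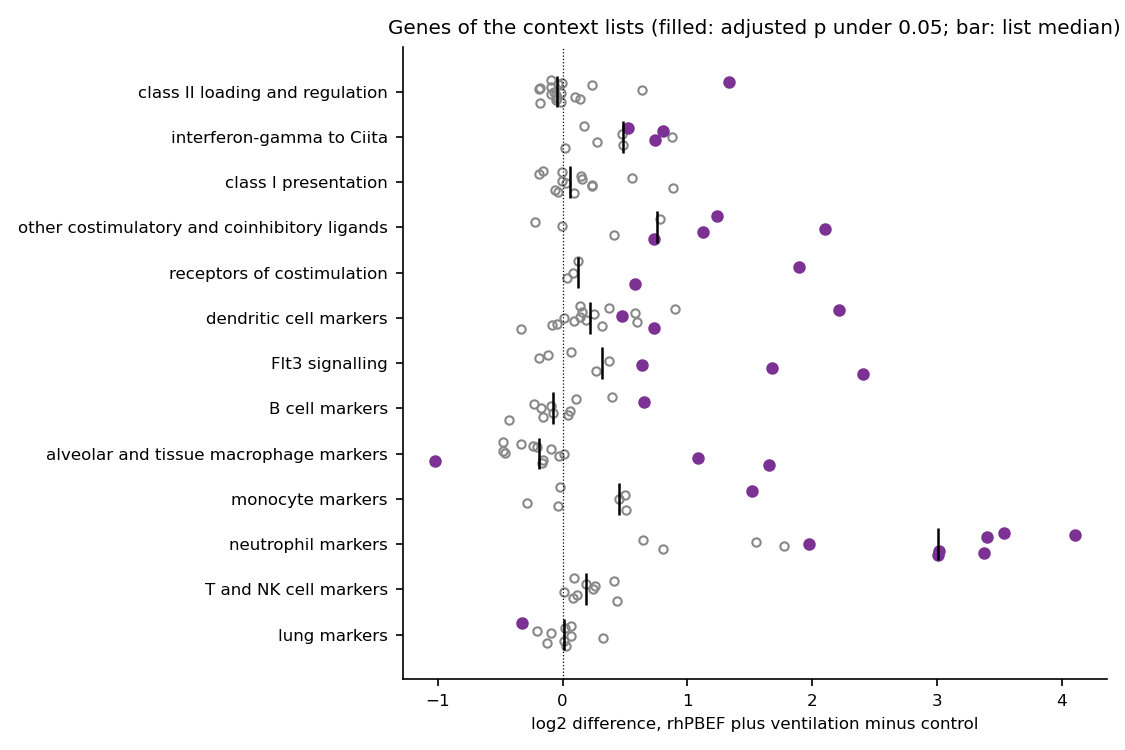
Log2 difference of rhPBEF plus ventilation minus control (horizontal axis) for every tested gene of the 13 lists. Filled points passed a limma adjusted p of 0.05, open points did not, and the bar is the list median. Genes of class II loading have a median of -0.045, with Marchf1 at 1.33 as the 1 filled point and Rfx5 next at 0.64. The neutrophil median is 3.01.

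Most of these list calls were lost in at least 1 fit that left out an array. Of 30 genes named from the lists, 26 passed for the combined treatment against control, and 6 of them (Marchf1, Icam1, Tnfrsf9, Plet1, Clec4e and Il1r2) passed whichever array was left out. For rhPBEF against control 9 passed, and 0 passed whichever array was left out. With 1 array left out, the count of costimulatory ligands that rose with the combined treatment ran from 1 to 6. That of dendritic cell markers ran from 0 to 4 and that of neutrophil markers from 2 to 8. For the list of interferon-gamma, interleukin-10 and related signalling genes it ran from 0 to 7. The lowest counts came without a control array or combined replicate 1 or 2, and the highest without combined replicate 3 or ventilation replicate 2.

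The genes whose levels ran most like those of the set were sought among all genes tested. Nearest to the mean of Cd74, H2-Aa, H2-Ab1 and H2-Eb1 over the 12 arrays were 1700037C18Rik (Pearson r = 0.903), Cep126 (r = 0.892), Alkbh4 (r = 0.884), Nop9 (r = 0.883) and Anxa8 (r = 0.881). Nearest to Cd83 were Cd14, the lipopolysaccharide coreceptor gene, at 0.973, Steap4, a metalloreductase gene, at 0.972, Rgs16, a regulator of G protein signalling, at 0.970, Cxcl1, a neutrophil chemokine gene, at 0.970 and Icam1 at 0.965. After the group means were taken out these 5 ran from 0.730 for Icam1 to 0.923 for Rgs16. The values describe 12 arrays that share groups and scaling, and the genes were picked as the highest of 12921.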

How the data were processed

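The table deposited by the authors holds 1 log2 value per probe set and array. MAS5 and GCRMA are named, per the submitters' processing notes, with roles and versions not given. The normalization method is not given in the sources used here. Arrays were grouped by title, since the description field calls all of them controls.

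Of 45101 probe sets 64 control ones were left out, 34945 carried 1 gene symbol and were used, 932 carried several and 9160 none. Groups were compared by limma's lmFit and eBayes (limma 3.58.1, R 4.3.3) on 4 group means, with 8 residual and 2.99 prior degrees of freedom and Benjamini-Hochberg adjustment over 12921 genes in each of 6 comparisons at a threshold of 0.05. With 3 arrays against 3, exact permutation cannot go below 0.1. The number of arrays limits the precision.

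The genes and the 13 lists (184 entries, 143 genes tested) were chosen with earlier results of these data known. From each list up to 4 genes past 0.05 against control with the largest difference are named, or the 2 with the highest mean. For likeness the 5 genes with the highest r are named. Promoters are RefSeq's. Alternatives changed the filter, normalization, variance model, probe sets, replicate block and arrays. Figures used matplotlib 3.10.9 in Python 3.11.15.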

Additional observations from a re-analysis of the deposited data

Results flagged for a closer look

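For Flt3, the rhPBEF difference was negative in ventilated lungs and positive in unventilated lungs when each array is set against the mean of its comparison group. All 3 arrays of rhPBEF plus ventilation (7.90, 7.68 and 7.91) lay below the ventilation mean of 7.96, and all 3 rhPBEF arrays (7.88, 7.88 and 8.04) lay above the control mean of 7.87, although the arrays of the groups overlapped. The interaction was -0.20 ± 0.15 (SE) on the log2 scale with a limma adjusted p of 0.998.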

How the results depend on the processing

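The 54 differences of the 9 tested genes were recomputed under 23 settings, 12 of which left out 1 array each. Of 1221 values 1138 kept their direction and their side of the threshold, 2 lost a call, 5 gained one, 76 uncalled values changed sign and 0 called ones did. The sign changes touched 33 of the 54 differences, the largest being that of Cd83 for the combined treatment against rhPBEF, 0.20 as reported and -0.14 at the lowest. Array quality weights gave 2 of the 9 genes past the threshold for rhPBEF plus ventilation against control, where 5875 of all 12921 genes passed. Cd86 joined there, at 0.51 (limma adjusted p = 0.00168). The same weights gave 1 for the combined treatment against ventilation (Cd83, 2.77, limma adjusted p = 0.000788), where 464 of all genes passed. With 1 array left out, the number of these genes past the threshold ran from 0 to 1 for rhPBEF against control, from 1 to 2 for the combined treatment against control and from 0 to 1 for the combined treatment against ventilation. It was 0 throughout for the other comparisons. Cd83 ran from 2.72 to 3.53 for the combined treatment and from 2.62 to 3.05 for rhPBEF. The cause of these shifts was not tested.

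Over all genes, 1136 passed for the combined treatment against control, 158 for rhPBEF, 1 for ventilation, 42 for the combined treatment against ventilation and 1 against rhPBEF, and array quality weights gave 5875, 1509, 145, 464 and 20. Leaving out 1 array gave 152 to 2498, 44 to 358, 0 to 43, 13 to 406 and 0 to 3. A fit of only the groups compared gave 636 for rhPBEF against control and 3 for the combined treatment against ventilation. Another fit left out rhPBEF replicate 2 and ventilation replicate 3 together, set aside for skeletal muscle genes whose levels are not given here. It gave 69 for rhPBEF and 34 for ventilation. With the replicate number as a block, 1, 1, 0, 0, 0 and 0 of the 9 genes passed for the combined treatment, rhPBEF, ventilation, the combined treatment against ventilation, against rhPBEF and the interaction, as without it, and 1263, 186, 0, 49, 0 and 0 of all genes. Of 18 same-numbered pairs 7 correlated above 0.1 in their deviations, and 6 of 12 arrays correlated best with their own number. Over the same-numbered pairs r ran from -0.21 to 0.526, and over the other pairs from -0.53 to 0.328. The numbers were not taken as a pairing in the main fit, a choice that these values do not settle. Levels near the filter, as for Ciita and Cd80, carry no measure of background.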
